A study of Drosophila melanogaster with 3 samples.

Results

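The regions described here are those that lay directly below the reproducibility cut of a map of pb-GFP binding in the embryo of Drosophila melanogaster. They are the regions ranked 2741 to 5000 by the authors' signal value in the combined peak list on the dm6 genome, 2260 of its 30000 regions, or 7.53%. The cut itself fell at rank 2740, since the thresholded list held the 2740 strongest regions of the combined list and none of the 2260. The regions were thus chosen by the signal value of the combined list, and that value and its rank are given below as a description only. All 3 libraries came from whole embryos of both sexes, aged 0 to 24 h, from a transgenic line that expresses proboscipedia (pb) with green fluorescent protein at its C terminus. Chromatin sheared by sonication to 200 to 800 bp was recovered with an antibody (chromatin immunoprecipitation and sequencing, ChIP-seq). The sample descriptions give it as directed against GFP, while another label names pb as the antibody, so recovery of tagged and of untagged pb protein cannot be told apart. The 3 libraries were biological replicates of this single group, with no second condition. Neither the authors' control nor embryos without the tagged protein were analysed here, so regions recovered independently of pb-GFP cannot be told apart from those that depend on it. Whole embryos mix all cell types, so a region used by few cells and a region weakly bound in many cannot be told apart either.

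pb belongs to the Hox genes of the Antennapedia complex and is known for its role in forming the adult mouthparts. Hox genes encode homeodomain transcription factors that give segments their identity along the body axis. Their proteins recognise short AT-rich sites, and they often bind together with the TALE homeodomain cofactors exd and hth, which also control where in the cell the complex acts. In ChIP-seq a caller ranks candidate regions, and the irreproducible discovery rate (IDR) sets a cut by how well the ranks repeat between replicates. Here the cut fell at a single rank of the combined list, and the place of a region in each replicate list shows how far that region repeated.

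The regions nearest to Hox genes and their cofactors carry the sequences of most interest for a Hox protein, and 8 of them are shown with 100 bp to either side of the summit. They were taken by combined rank among the regions nearest to Hox genes, exd or hth, leaving out windows with an annotated untranslated region, and were read from the Release 6 (dm6) reference on the plus strand, 5′ to 3′. Capitals mark every match, on either strand, to the 12 short motifs given further on.
Antp, rank 2749, chr3R:6973298-6973498: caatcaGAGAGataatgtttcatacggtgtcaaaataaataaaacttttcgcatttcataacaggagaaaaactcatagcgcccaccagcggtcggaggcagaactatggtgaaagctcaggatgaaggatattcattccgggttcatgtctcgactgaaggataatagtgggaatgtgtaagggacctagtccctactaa
hth, rank 2980, chr3R:10560674-10560874: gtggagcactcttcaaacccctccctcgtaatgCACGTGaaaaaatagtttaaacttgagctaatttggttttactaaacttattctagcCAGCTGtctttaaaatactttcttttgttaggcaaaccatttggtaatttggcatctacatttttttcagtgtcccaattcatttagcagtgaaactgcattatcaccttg
hth, rank 3005, chr3R:10648917-10649117: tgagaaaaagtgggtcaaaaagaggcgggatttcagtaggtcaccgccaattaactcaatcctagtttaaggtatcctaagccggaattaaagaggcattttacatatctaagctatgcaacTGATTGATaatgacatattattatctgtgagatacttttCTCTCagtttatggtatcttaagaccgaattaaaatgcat
Dfd, rank 3257, chr3R:6818762-6818962: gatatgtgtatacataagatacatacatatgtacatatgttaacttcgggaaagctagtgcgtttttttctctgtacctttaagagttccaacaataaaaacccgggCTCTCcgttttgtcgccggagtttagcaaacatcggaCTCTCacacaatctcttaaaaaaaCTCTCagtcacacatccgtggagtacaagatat
abd-A, rank 3339, chr3R:16834721-16834921: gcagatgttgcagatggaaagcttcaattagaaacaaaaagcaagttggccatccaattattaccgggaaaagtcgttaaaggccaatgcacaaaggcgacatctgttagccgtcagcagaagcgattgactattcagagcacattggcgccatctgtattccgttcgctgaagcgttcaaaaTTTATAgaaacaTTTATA
hth, rank 3537, chr3R:10598288-10598488: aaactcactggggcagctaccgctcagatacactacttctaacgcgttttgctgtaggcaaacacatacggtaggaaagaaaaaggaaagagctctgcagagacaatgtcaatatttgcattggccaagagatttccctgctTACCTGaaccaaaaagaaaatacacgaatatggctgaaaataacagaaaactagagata
hth, rank 3840, chr3R:10535875-10536075: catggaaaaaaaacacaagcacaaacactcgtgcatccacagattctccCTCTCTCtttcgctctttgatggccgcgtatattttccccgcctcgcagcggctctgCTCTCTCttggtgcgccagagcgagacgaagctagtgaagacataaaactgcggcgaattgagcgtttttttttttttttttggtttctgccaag
lab, rank 3861, chr3R:6677403-6677603: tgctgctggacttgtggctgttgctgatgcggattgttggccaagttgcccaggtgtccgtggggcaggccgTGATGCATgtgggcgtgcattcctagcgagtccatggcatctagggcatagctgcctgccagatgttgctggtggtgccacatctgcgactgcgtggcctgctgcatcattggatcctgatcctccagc
None of these 8 windows held the paired homeodomain core TAATTA or the Exd-Hox composite TGATTAAT. The looser composite TGATNNAT, whose centre is free, occurred in 1 hth window and in the lab window. GAGAG, the repeat recognised by GAGA factor, occurred in the windows of Antp and Dfd and in 2 of those of hth. The abd-A window held 2 matches to TATAAA, both on the minus strand. A match here is a description of the letters and not a bound site.

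The cut separated regions with nearly the same signal. The first region below the cut, nearest to mad2, a spindle checkpoint gene, had a signal value of 112.935, against 112.94 for the last thresholded region, nearest to CG6793. The mad2 region ranked 4687, 3176 and 4879 in replicates 1, 2 and 3, against 9120, 2052 and 4124 for the CG6793 region just above it. At the lower end the region ranked 5000, nearest to CG14990, had a signal of 82.0077, and the next one, nearest to ru, had 81.9942. The authors' −log10 q gave no step at the cut either. Its largest value in the combined list, 3.75974, was held by the first 2876 regions, and so by 136 of the 2260 (6.02%). Below them it declined to 1.68742 among the 2260.

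Each replicate list held most of the 2260 regions, but their ranks there were scattered. A replicate list holds 30000 peaks and background regions of that library, and a region was counted as found where a summit of the list lay within 100 bp of its own. Replicate 1 held 1790 of them (79.2%, exact Clopper-Pearson 95% interval 77.5 to 80.9%), replicate 2 held 1992 (88.1%, 86.7 to 89.4%) and replicate 3 held 1940 (85.8%, 84.3 to 87.3%). These intervals treat regions as independent and cover counting error only. Thresholded peaks were found in 94.3%, 97.7% and 95.4% of cases in replicates 1, 2 and 3, and all 30000 regions of the combined list in 55.3%, 56.1% and 52%. The mean over libraries was 84.4% ± 4.64 for the 2260 regions and 95.8% ± 1.70 for the thresholded peaks (SD, n = 3). The combined list was called on the reads of the same libraries, so presence there is no independent support, and no test was made.

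All 3 lists held 1330 of the 2260 regions (58.8%), against 2421 of the thresholded peaks (88.4%), 29.4% of the regions ranked 5001 to 10000 and 19.2% of the whole combined list. Another 808 were found in 2 lists, 116 in a single list and 6 in none. Absence from a list means here that no summit lay within 100 bp. Of the 1058 cases of a region and a list that lacked it, 610 had a summit within 200 bp, at a median rank of 5487.5, and 778 were overlapped by a region of that list. Those missed by replicate 1 alone were most frequent, 384 regions, while 187 were missed by replicate 2 alone and 237 by replicate 3 alone. Inside the band the share found in all 3 lists was 67.4% for ranks 2741 to 3305, 62.7% for ranks 3306 to 3870, 55.6% for ranks 3871 to 4435 and 49.7% for ranks 4436 to 5000. The share thus declined along the band.

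**Figure D1:**
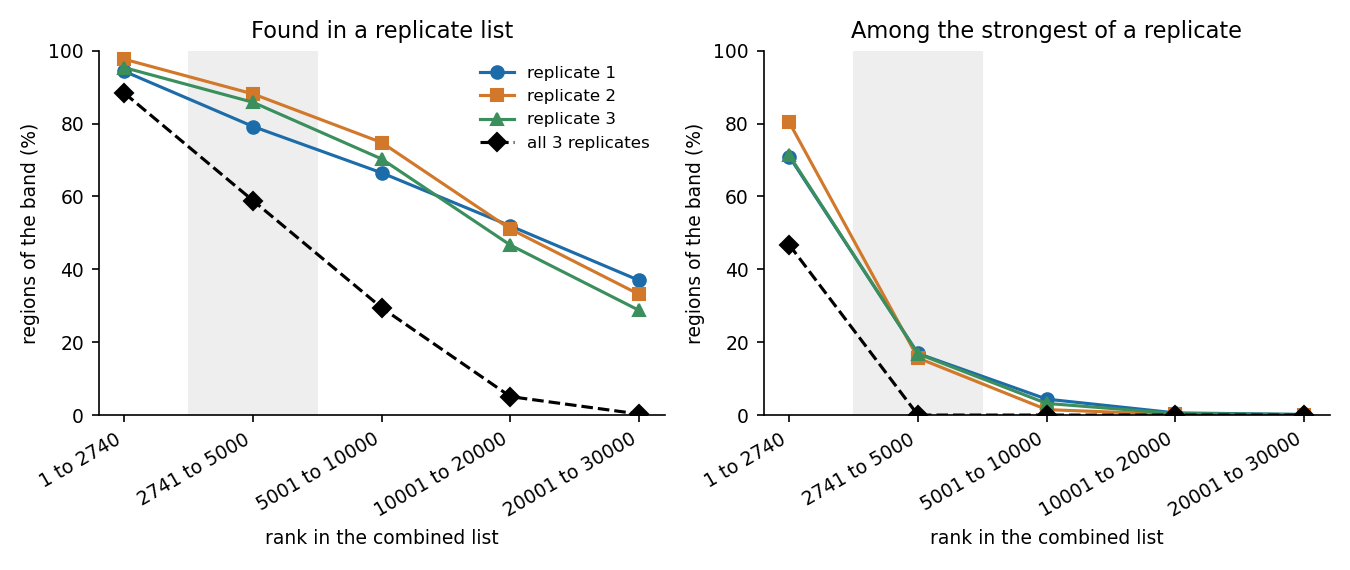
Share of regions (%) of each rank band of the combined list with a summit within 100 bp in each replicate list (left) and among the 2740 strongest of each replicate (right); the dashed line gives the share in all 3 replicates and the shaded band is the 2260 regions. In that band 79.2 to 88.1% were found in a replicate, 58.8% in all 3, and none was among the strongest of all 3.

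None of the 2260 regions ranked among the strongest 2740 of all 3 libraries, and neither did any region ranked 5001 to 30000. The 1280 regions that did were all thresholded peaks, 46.7% of these peaks and 4.27% of the whole combined list. The absence was therefore not particular to the 2260. A region strong in every library adds up to a high rank in the combined list, which chose the regions, so this count is partly set by the choice. The strongest 2740 of replicates 1, 2 and 3 held 382, 354 and 380 of the 2260, on average 16.5% ± 0.691 (SD, n = 3), against 74.2% ± 5.32 of the thresholded peaks. Of the 2260, 964 regions (42.7%) were among the strongest of a single library, with 335, 299 and 330 from replicates 1, 2 and 3, and 76 (3.36%) were among the strongest of 2. The remaining 1220 (54.0%) were among the strongest of none. For the 76, the list of the third library held 31 within 100 bp, at ranks of 3476 to 26764 with a median of 14572. The other 45 had no summit within 100 bp there, but 17 of them had one within 200 bp, at ranks of 640 to 26375 with a median of 8409, and 28 were overlapped by a region of that list. Where found, the 2260 regions had median ranks of 5282.5, 4542.5 and 4888.5 in replicates 1, 2 and 3. The middle 50% of ranks ran from 2987 to 10265 in replicate 1, from 3097.5 to 7313 in replicate 2 and from 3113.5 to 8324 in replicate 3, so replicate 1 spread them most.

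**Figure D2:**
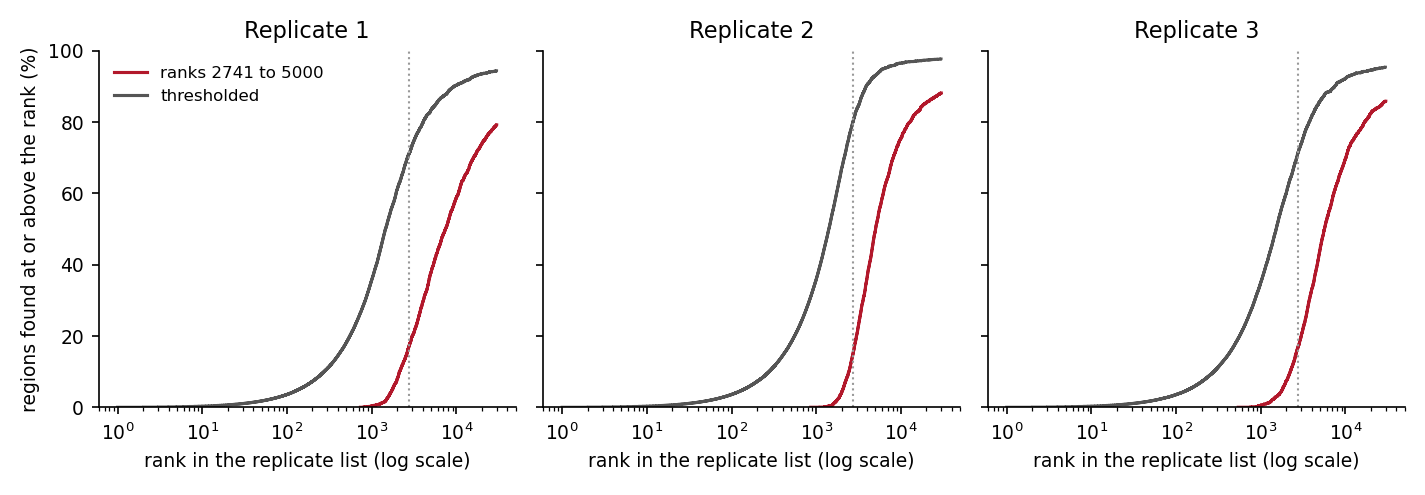
Cumulative share (%) of the 2260 regions (red) and of the thresholded peaks (grey) found at or above a rank of each replicate list (log scale); the dotted line marks rank 2740. The red curves leave the axis near rank 1000 and end at 79.2, 88.1 and 85.8% in replicates 1, 2 and 3, and the grey ones at 94.3, 97.7 and 95.4%.

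The 12 regions with the lowest mean ranks over the 3 lists had means of 2671 to 3205, with SDs between libraries of 338 to 1919. They were chosen for ranking high on average and not for how closely their ranks repeated. The lowest mean was that of Sry-delta, a zinc finger gene, whose promoter region at 3R 30043126 to 30043535 ranked 2113, 3476 and 2424 in replicates 1, 2 and 3 (2671 ± 714, SD, n = 3). Next came chif, needed for DNA replication and eggshell gene amplification, at 1967, 2814 and 3270 (2683.67 ± 661). Mef2, which encodes a master regulator of muscle differentiation, followed with an intronic region at 2470, 3100 and 2995 (2855 ± 338). That region lay 200 bp from a thresholded summit. The others of the 12 with the lowest mean ranks were nearest to CG2004, CG7272, CHES-1-like, otk, Ser, egh, Dg, Ypel and insc. Ser encodes a Notch ligand, Dg the matrix receptor dystroglycan, and insc an adaptor of asymmetric neuroblast division. The Ser region ranked 2238, 2653 and 4289, lay 14909 bp upstream of the start site, and Ser had no thresholded peak.

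Some regions ranked unevenly between libraries. The second region below the cut, an intronic region 3359 bp from a start site of brat, a translational repressor of neural stem cell growth, ranked 1235, 25168 and 6039 in replicates 1, 2 and 3. Replicate 1 put it among its strongest and replicate 2 far down its list. The promoter region of eIF1A, an initiation factor gene, at rank 4754 of the combined list, was found in replicate 2 at rank 2388, while the nearest summits of replicates 1 and 3, both within 200 bp, ranked 18373 and 6636.

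Other regions were counted as absent although a replicate summit lay slightly farther off. The promoter region of oc, a head gap gene, at rank 2900 was found in replicate 1 at rank 1819, and replicates 2 and 3 had summits 116 and 135 bp away at ranks 2810 and 2356. A region 11123 bp upstream of wg, the Wnt ligand of segment polarity, was found in replicate 3 at rank 1870, with summits 150 and 109 bp away in replicates 1 and 2 at ranks 5269 and 3239. Replicates 1, 2 and 3 were the single list for 36, 41 and 39 regions. In the 232 cases of such a region and a list that lacked it, a summit lay within 200 bp in 166, at a median rank of 4910, and a region of that list overlapped in 199.

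The 6 regions found in no replicate list all had a replicate summit farther than 100 bp away and overlapping regions in some list. They were nearest to tara (rank 3016), Pcyt1 (3615), Atf3 (3651), Trl (3920 and 4896) and Pkn (4488). tara is a trithorax group gene, Trl encodes GAGA factor, and Atf3 is a stress-responsive bZIP factor gene. The Atf3 region lay 204 bp from a thresholded summit, and the closest replicate summits, 214, 178 and 206 bp away, ranked 25, 22 and 23. For the second Trl region, 199 bp from a thresholded summit, they lay 194, 195 and 162 bp away and ranked 104, 74 and 34. These 2 regions therefore stood beside strong peaks of every replicate. The Pcyt1 region lay 11543 bp from the nearest thresholded summit, and its closest replicate summits, 176, 152 and 155 bp away, ranked 7021, 2683 and 2879. When overlap of the regions by at least 1 bp was counted in place of summit distance, each of the 2260 was met in at least 1 replicate list.

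Few of the regions lay beside a thresholded peak. The median distance from a summit to the nearest thresholded summit was 8218 bp, and the closest lay at 199 bp. Within 1000 bp of a thresholded summit were 234 of the 2260 (10.4%), against 8.94% of the regions ranked 5001 to 10000 and 4.19% of those ranked 20001 to 30000. A thresholded region was overlapped by 101 of the 2260, and 49.5% of these were found in all 3 lists, against 59.3% of the others. All but 3 of the 2260 were 410 bp wide, so width carried no information on the binding.

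Promoters held most of the regions. Within 1000 bp of where a protein-coding gene starts lay 1287 of the 2260 summits (56.9%, exact 95% interval 54.9 to 59.0%), against 63.2% of the thresholded peaks, 47.3% of the regions ranked 5001 to 10000 and 39.6% of the whole list. Introns held 585 (25.9%), intergenic sequence 297 (13.1%), coding exons 76 (3.36%), 3′ untranslated regions 11 and 5′ untranslated regions 4. The thresholded peaks had 24.3% in introns, 11.0% in intergenic sequence and 0.474% in coding exons. The whole list had 27.8%, 16.3% and 14.8% in these classes, and ranks 5001 to 10000 had 11.3% in coding exons, so the coding exon share of the 2260 lay above that of the thresholded peaks and below that of the whole list. Across the band the promoter share stayed between 56.1 and 57.7% in each of the 4 bands of ranks above, while the coding exon share was 1.24, 3.19, 4.07 and 4.96% from ranks 2741 to 3305 onward. The summits also lay less tightly at start sites. Their median distance to one was 643 bp, against 385 bp for thresholded peaks, and 34.7% lay within 200 bp, against 41.1%. Upstream of the start site were 681 of the promoter summits and at or downstream of it 606, against 1200 and 533 for thresholded peaks. More than 1 gene started within 1000 bp of 33.1% of the promoter summits, against 37.9% of the thresholded ones. These are shares of single lists, with no replicate error of their own.

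Ranking each library by its own signal gave 3 values for the same comparison. Among the regions that a library ranked 2741 to 5000, 49.2%, 54.3% and 58.1% were promoters in replicates 1, 2 and 3, against 62.0%, 60.7% and 63.5% of its 2740 strongest. The share was lower in the rank band in 3 of 3 libraries, by a mean difference of −8.16 percentage points (SD 4.04, n = 3, exact 2-sided sign-flip permutation p = 0.25, the smallest that 3 libraries allow). The share in introns away from promoters and in intergenic sequence was 38.0% ± 5.45 in the band and 35.2% ± 2.74 among the strongest (SD, n = 3). Its difference was −0.652, 4.27 and 4.84 points in replicates 1, 2 and 3, with a mean of 2.82 (SD 3.02, exact p = 0.5), so it did not hold in replicate 1. Regions of a library's band were less often found in both other lists, at 35.8%, 40.4% and 37.0% in replicates 1, 2 and 3, against 73.3%, 78.2% and 71.5% of its strongest. That difference was −36.6 points (SD 1.89, exact p = 0.25) and held in 3 of 3 libraries. Neither other list held 25.4% ± 4.97 of the band, against 6.87% ± 2.53 of the strongest (SD, n = 3).

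**Figure D3:**
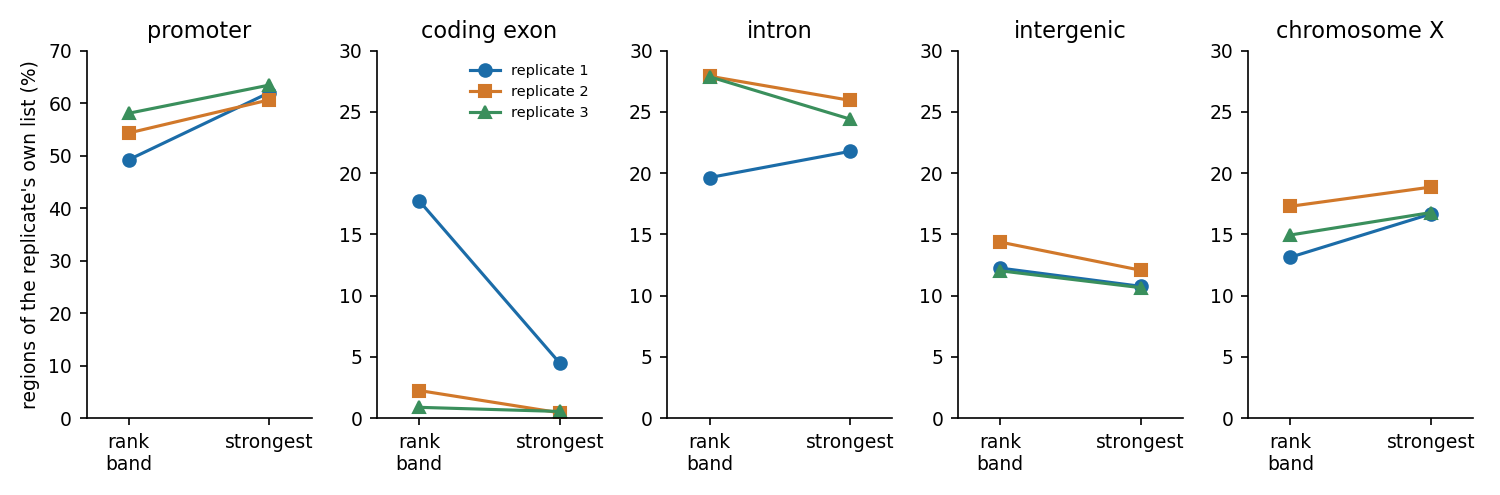
Share (%) of each library's own regions ranked 2741 to 5000 (left points) and of its own 2740 strongest (right points) that fell into promoters, coding exons, introns and intergenic sequence and on chromosome X; lines join the values of a library. The promoter panel has its own scale. Coding exons made up 17.7% of the band in replicate 1 and 2.26 and 0.885% in replicates 2 and 3.

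Coding exons set replicate 1 apart. In its own band 17.7% of regions had their summit in a coding exon, against 2.26% in replicate 2 and 0.885% in replicate 3. Among the strongest the shares were 4.49%, 0.438% and 0.547% in replicates 1, 2 and 3. The band minus strongest difference was positive in 3 of 3 libraries, 13.3, 1.82 and 0.338 points, with exact p = 0.25. The 76 coding exon regions of the combined band leaned the same way. Replicate 1 held 72 of them at a median rank of 2775.5, replicate 2 held 67 at 7402 and replicate 3 held 60 at 10103. Among the strongest 2740 of a library stood 35 of them in replicate 1, 1 in replicate 2 and 2 in replicate 3. Of the 49 found in all 3 lists, 32 ranked highest in replicate 1, whereas of the 1281 regions of other classes found in all 3, 405 ranked highest there. The first by combined rank lay in Bsg (basigin), at 2441 and 3722 in replicates 1 and 2 and absent from replicate 3. The wnd region, in a gene for an axonal stress kinase, ranked 1648, 6816 and 5213, and the CG8312 region ranked 1829 and 7625 in replicates 1 and 3 and was absent from replicate 2. These 3 were named after their values were seen. The median GC content within 100 bp of the summit was 60.7% for the 76, against 43.8% for all 2260, and its part in the difference between libraries was not tested. Of the 1714 regions found in both replicates 2 and 3, 53 (3.09%) were in coding exons, so these libraries also held most of them, at lower ranks.

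Chromosome X held a smaller share of the regions than of the thresholded peaks. It had 353 of the 2260 (15.6%), or 14.99 per Mb, against 502 thresholded peaks (18.3%), or 21.3 per Mb. The large autosome arms held 16.8 to 17.9 of the 2260 per Mb and 19.1 to 21.3 thresholded peaks per Mb, and the fourth chromosome held 6 and 8. In the libraries' own lists X held 13.1%, 17.3% and 14.96% of the rank band in replicates 1, 2 and 3, against 16.7%, 18.9% and 16.8% of the strongest. The difference was −2.31 points (SD 1.07, n = 3, lower in 3 of 3 libraries, exact sign-flip p = 0.25).

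The regions added many genes to those with a thresholded peak. A region was given to the protein-coding gene with the nearest start site, which need not be the gene it acts on. The 2260 regions fell to 1757 genes, 12.6% of the 13945 protein-coding genes, and thresholded peaks fell to 2047, or 14.7%. Both kinds were nearest to 595 genes, 33.9% of the genes with a region below the cut and 29.1% of those with a thresholded peak. This left 1162 genes with a region below the cut only, 8.33% of all protein-coding genes. Of the 2260 regions, 918 (40.6%) lay at a gene with a thresholded peak. A single region was nearest to 1413 genes, 2 regions to 246 genes and 3 or more to 98 genes.

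Every Hox gene with a region below the cut also had a thresholded peak. Of the 8 Hox genes, 6 had such a region, 11 regions in all, and 7 had a thresholded peak. Antp, the identity gene of the middle thorax, had 3, lab, which acts in the head, had 3, abd-A had 2, and pb, Dfd and Abd-B had 1 each, while Scr and Ubx had none. For pb itself the region was at 3R 6741376 to 6741785, with its summit 482 bp downstream of a start site and 17426 bp from the nearest thresholded summit. It ranked 4367 in the combined list, 1978 in replicate 1 and 4596 in replicate 2, and was absent from replicate 3. The Abd-B region, 96 bp upstream of a start site, ranked 4973 in the combined list and 1961 in replicate 1, with summits 236 and 173 bp away in replicates 2 and 3 at ranks 13061 and 2932. These were the only promoter regions of the 11. The highest of the Antp regions was intronic and ranked 8111, 2775 and 2610 in replicates 1, 2 and 3. The Dfd region, 27026 bp downstream of the start site and intergenic, ranked 6336, 4147 and 3276. One of the lab regions and one of the Antp regions lay in coding exons, and the lab one ranked 10639, 7733 and 9269.

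Among the cofactors and other TALE genes the regions were all away from promoters. hth had 8 regions, 6 in its introns and 2 upstream of the gene, and exd had none. On the scale of distance from the 5′ end of hth they spread from −16.7 to 104 kb, along a gene of 132 kb. The 2 thresholded peaks nearest to hth lay at 34.3 and 75.1 kb. The highest hth region, at rank 2980, ranked 2297, 2927 and 9290 in replicates 1, 2 and 3. The next, upstream at rank 3005, ranked 8552, 1810 and 7073, and that at rank 3537 was absent from replicate 1 and ranked 6612 and 1810 in replicates 2 and 3. Each library ranked a different one of the 8 highest. The Iroquois genes mirr, ara and caup, TALE genes that pattern the wing and eye, had 4 regions between them with hth left out and no thresholded peak, so that 4 of the 7 genes of this list had a region below the cut and 1 a thresholded peak. The mirr region ranked 27992, 4693 and 6145, the best ara region 2183, 17330 and 4703, and the best caup region 3283, 8943 and 4349.

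**Figure D4:**
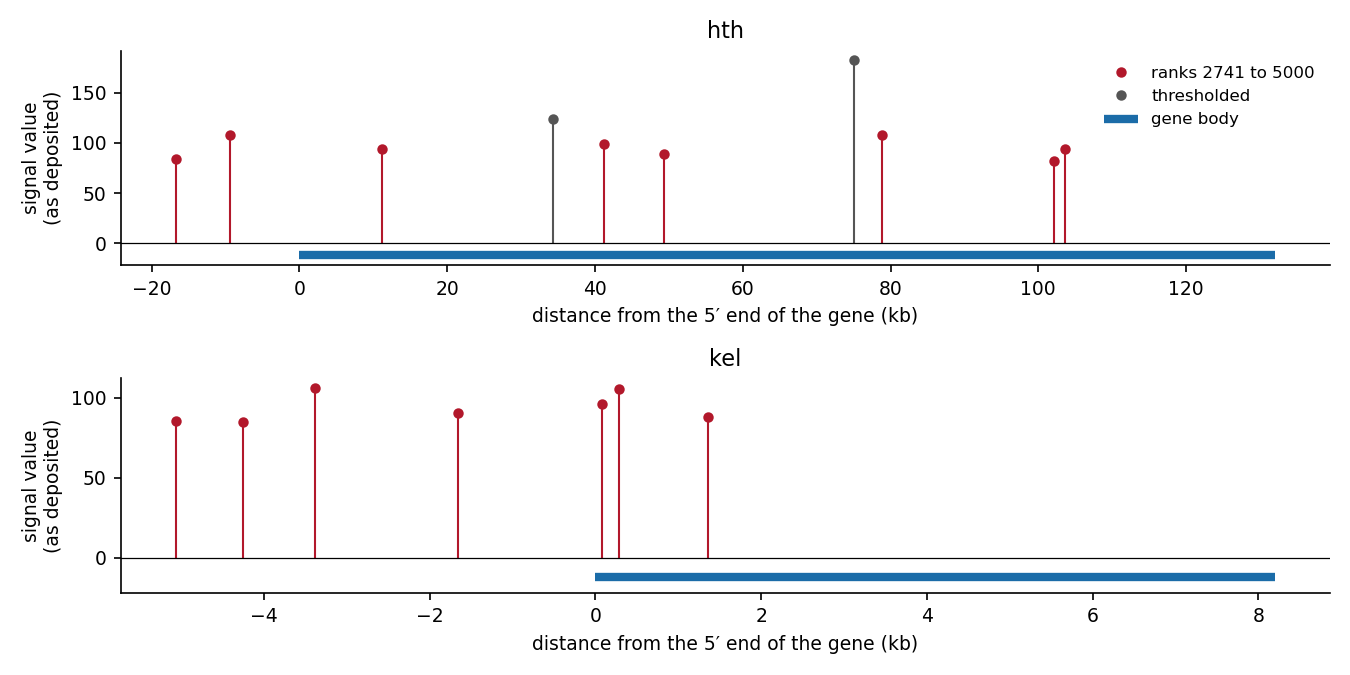
Signal value as deposited of regions ranked 2741 to 5000 (red) and of thresholded peaks (grey) nearest to hth and to kel, by distance from the 5′ end of the gene (kb, positive into the gene, blue bar). At hth 8 regions from −16.7 to 104 kb surround 2 thresholded peaks, and at kel 7 regions lie from −5.06 to 1.36 kb with no thresholded peak assigned to kel. A thresholded summit nearest to another gene, 2349 bp from the kel region at rank 4624, is not drawn.

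A few genes gathered many regions below the cut. The counts were not adjusted for gene length, which ran from 1.475 kb (CG43245) to 132 kb (hth) among the 6 genes taken as having most regions. CG43245 had 5 regions, as did CG6163, RapGAP1, chn, PRAS40 and side-IV, so its place among the 6 rests on a tie. jing, a zinc finger gene of the Polycomb group, had most, 9 regions and 1 thresholded peak. ftz-f1, which encodes a nuclear receptor of the ecdysone cascade, had 8 and 2, hth 8 and 2, apt, a regulator of head and tracheal development, 6 and 3, and CG43245 5 and 6. kel, which encodes the kelch protein of ring canals, had 7 regions and no thresholded peak. They lay from −5.06 to 1.36 kb around the 5′ end of the gene at 2L 18138083. The 4 upstream ones lay inside the neighbouring gene Socs36E, an inhibitor of JAK/STAT signalling, 2 of them in its coding exons. A thresholded summit of rank 1242, nearest to a gene other than kel, lay 2349 bp from the kel region at rank 4624. The kel region at rank 3081 ranked 21881, 1775 and 2464 in replicates 1, 2 and 3, and that at rank 3116 was found in replicate 2 alone, at 1756, with summits 106 and 216 bp away in replicates 1 and 3 at ranks 3629 and 3807. Replicate 2 held 6 of the 7 kel regions, replicate 3 also 6 and replicate 1 held 4. The start site regions at ranks 3116 and 3712 overlap each other. side-IV, an immunoglobulin family gene, was the other gene with 5 or more regions and no thresholded peak, and was named after this was seen.

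Regions below the cut were nearest to many developmental regulators and signalling genes. Beside the background of 12.6% of all protein-coding genes, 22 of the 30 gene lists had a larger share of genes with such a region. Some lists share genes, so their counts are not separate observations. For example, fz, wg, fz2, arr and nkd stood in both the segment polarity and the Wnt list. As the regions were chosen by signal and the lists with earlier results known, these counts are a description. They were not adjusted for gene length or for the spacing of genes, which affect how many summits are nearest to a gene. Of 14 Wnt ligand and receptor genes 10 had a region below the cut (71.4%), and 9 had a thresholded peak. The receptor gene fz had an intronic region absent from replicate 1 and ranked 1429 and 3437 in replicates 2 and 3, and no thresholded peak. drl, a receptor for Wnt5, had a promoter region at 1665, 3922 and 5770. Of 21 EGF receptor and Raf signalling genes 14 had one (66.7%), 10 had a thresholded peak and 6 had the region only (28.6%, against 8.33% of all protein-coding genes). Those 6 were Egfr, the receptor itself, the ligand gene vn, rho, whose protease releases ligands, the adaptor gene drk, the phosphatase gene csw, and kek1, an inhibitor of the receptor. The aop region, in the promoter of the pathway's repressor, ranked 3582, 2163 and 4611, and that of the feedback inhibitor aos was absent from replicate 1 and ranked 1569 and 9856 in replicates 2 and 3. The aop region was thus at similar ranks in every library, and the aos region was high in replicate 2 only.

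Of 14 ecdysone response genes 9 had a region below the cut, 23 regions in all, and 8 had a thresholded peak. Eip74EF, an early gene of the hormone response, had a promoter region at 4728, 2732 and 8742 in replicates 1, 2 and 3 and no thresholded peak. Of 28 axon guidance and neural adhesion genes 13 had one (46.4%), 8 of them with no thresholded peak (28.6% of the 28, against 8.33% of all protein-coding genes). Fas2, a neural cell adhesion gene, had one 18 bp downstream of its start site, at ranks 2955, 4373 and 4300, close together in every library. PlexA, a semaphorin receptor gene on the fourth chromosome, was absent from replicate 1 and ranked 3220 and 7343 in replicates 2 and 3. The nearest summit of replicate 1, at rank 23068, lay 121536 bp away. It was also the nearest one to the toy region on that chromosome, 83881 bp away, so the absence was not particular to PlexA. Of 19 appendage and mouthpart patterning genes 10 had a region, among them the promoters of btd, needed for head segments, and of tsh, a trunk identity gene. btd ranked 2917 and 1989 in replicates 1 and 3, with a summit 177 bp away in replicate 2 at rank 4631, and tsh ranked 9134, 2867 and 2577. Of 15 gap and head patterning genes 7 had a region, against 4 with a thresholded peak, including croc at 9112, 2095 and 4966 and opa at 7744, 3345 and 5276, both intergenic. The salivary gland and tracheal list had 9 of 14 and the segment polarity list 9 of 19.

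The other regulator lists had between 21.1 and 46.7% of their genes with a region. Of 24 neuroblast and proneural genes 8 had a region, of 15 neuronal identity genes 7, of 18 mesoderm and muscle genes 6, of 18 Notch pathway genes 7, of 9 pair rule genes 3, of 9 cell death genes 4 and of 5 other Antennapedia complex genes 2. The Notch receptor gene N had a promoter region at 9892 and 2491 in replicates 2 and 3, a summit 109 bp away in replicate 1 at rank 2585, and no thresholded peak. The muscle identity gene lbl had one 213 bp upstream of its start site at 3819 and 1285 in replicates 2 and 3, and a summit 187 bp away in replicate 1 ranked 7286. The death gene rpr had one 2 bp upstream of its start site at 2525, 10374 and 5119. Among genes for chromatin regulators, 4 of 19 Polycomb group genes, 7 of 16 trithorax group genes and 3 of 13 insulator genes had a region, against 9, 9 and 4 with a thresholded peak. BMP signalling genes had 5 of 17 and immune and stress genes 7 of 24, against 9 and 12 with a thresholded peak.

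Counted with and without a thresholded peak together, cytoplasmic ribosomal protein genes had a region below the cut about as often as all genes. They had a thresholded peak far more often. Of 92 such genes 11 had a region below the cut (11.96%, near the background of all genes), against 62 with a thresholded peak (67.4%). A region in the thresholded list cannot count below the cut, so the share of 11.96% depends on how many of these genes had their peak there. Of the 62, 4 also had a region below the cut, against 29.1% of all genes with a thresholded peak. Of the 11, 7 had no thresholded peak (7.61% of the 92, against 8.33% of all protein-coding genes), so that 69 of the 92 had one or the other. Whether ribosomal protein genes with no thresholded peak exceeded other such genes was not tested. RpL35 had a promoter region ranked 4126 and 1846 in replicates 2 and 3, with a summit 101 bp away in replicate 1 at rank 6543. The RpS26 region, 6 bp from its start site, ranked 2632 and 5998 in replicates 1 and 2, with a summit 105 bp away in replicate 3 at rank 2784. The region assigned to RpS4 lay in a coding exon of Srrm1, the neighbouring gene. Fewer genes than in the background had a region among translation initiation factors (3 of 44), mitochondrial ribosomal proteins (3 of 73), proteasome subunits (1 of 48), cytochrome P450 (5 of 83), odorant and gustatory receptors (2 of 119), cuticle proteins (3 of 120) and histones (1 of 116).

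**Figure D5:**
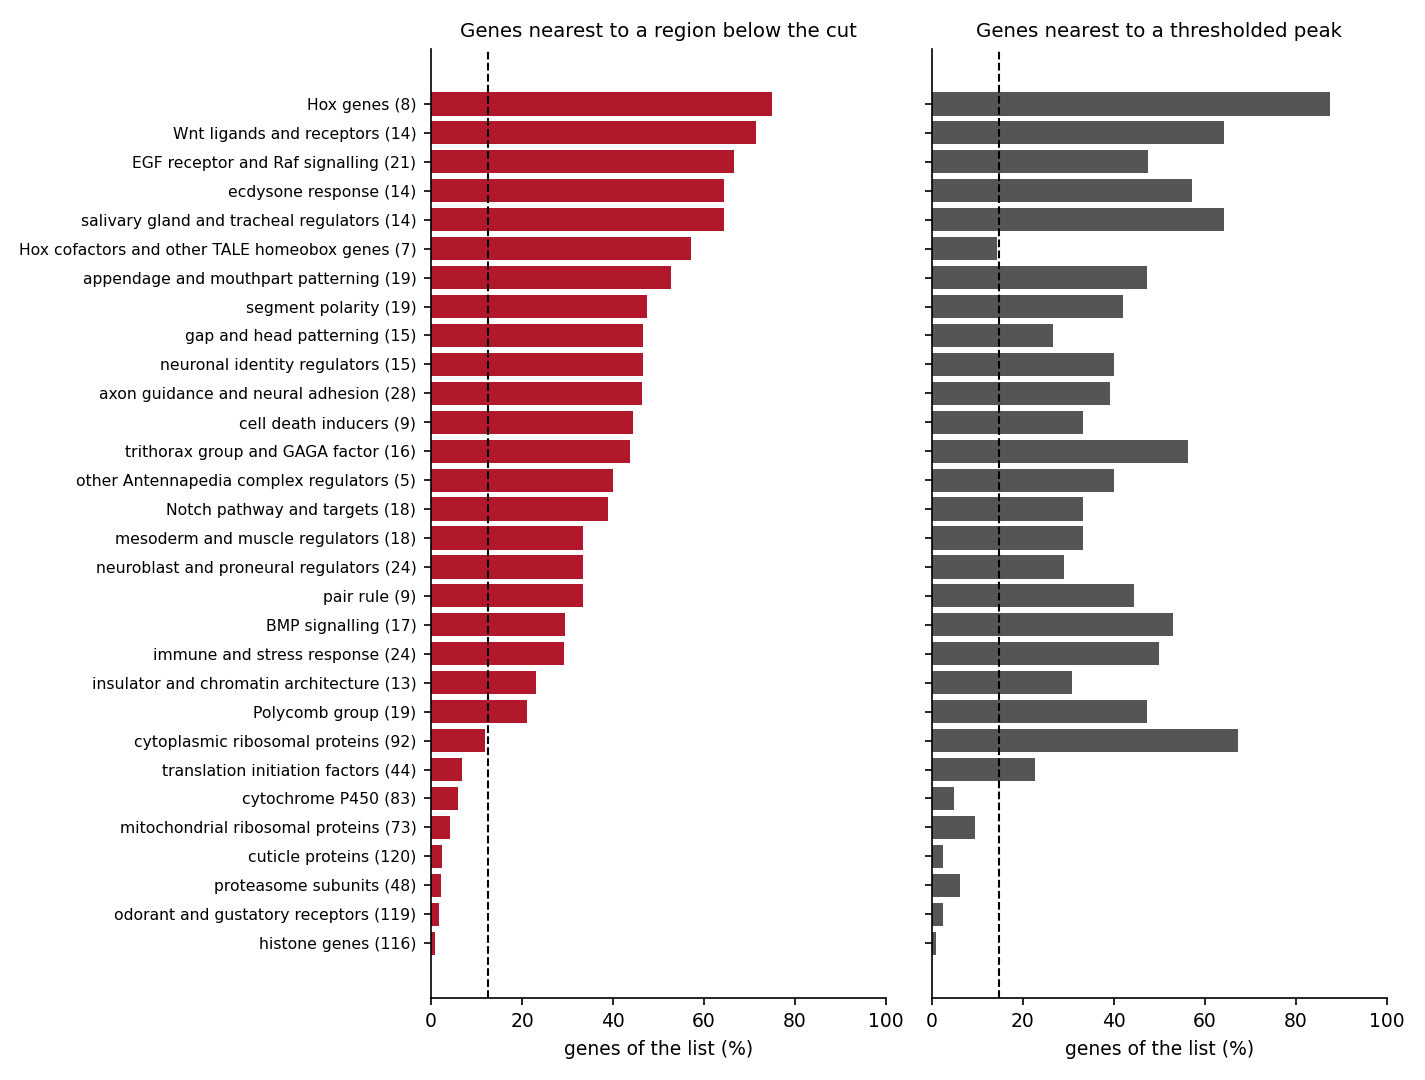
Share (%) of the protein-coding genes of each list, with its number of genes in brackets, that were nearest to a region ranked 2741 to 5000 (left, red) and to a thresholded peak (right, grey); dashed lines mark the share of all protein-coding genes, 12.6 and 14.7%. Hox genes lead both panels with 75 and 87.5%, and cytoplasmic ribosomal proteins stand at 11.96 and 67.4%.

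Base composition differed between the rank bands. The median GC content within 100 bp of the summit was 43.8% for the 2260 regions, against 39.3% for the thresholded peaks, and it was 47.8% for ranks 5001 to 10000 and 48.3% for the whole list. Windows centred 1000 bp to either side of the 2260 summits had 42.8%. The 12 motifs were counted on either strand in those same windows, and the share of motifs follows base composition, which was not adjusted for. TAATTA, a core of homeodomain sites, occurred in 9.51% of the 2260 windows (exact 95% interval 8.33 to 10.8%), against 12.3% of the thresholded ones, 11.7% of the windows 1000 bp away, 9.39% of windows of the same length around all protein-coding start sites, 7.48% at ranks 5001 to 10000 and 8.19% in the whole list. TGATTAAT occurred in 1.19%, against 0.766% of thresholded windows, 1.64% of those 1000 bp away and 0.947% in the whole list, and TGATNNAT, which includes it, in 10.7%, against 10.9%, 13.4% and 9.58%. The shares of these 3 motifs at the 2260 summits were thus lower than 1000 bp away and higher than in the whole list. The exact 95% intervals of the 2260 were 0.789 to 1.73% for TGATTAAT and 9.46 to 12.1% for TGATNNAT. Both intervals included the share of the whole list, and that of TGATTAAT also included the share 1000 bp away.

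GAGAG was, of the 12, the motif with the largest excess in percentage points over windows 1000 bp away. It occurred in 31.2% of the 2260 windows, against 28.9% of thresholded ones, 23.0% of windows 1000 bp away, 24.99% at start sites and 26.5% in the whole list. Its share was 32.0% in promoter regions and 30.7% in introns and intergenic sequence. The DRE and M1BP motifs were concentrated in promoters. TATCGATA, the DRE site of Dref and BEAF-32, occurred in 4.58% of promoter windows and 0.227% of intronic and intergenic ones, and in 2.70% of all 2260, against 4.42% of thresholded windows, 6.45% at start sites and 1.36% in the whole list. GGTCACAC, the motif bound by M1BP, occurred in 4.20% of promoter windows and 0.227% of intronic and intergenic ones, and in 2.48% of both the 2260 and the thresholded windows, against 5.68% at start sites and 1.31% in the whole list. TATAAA, the site of the TBP protein, ran the other way, with 18.8% of promoter windows and 24.9% of intronic and intergenic ones. It occurred in 20.5% of all 2260, against 23.4% of thresholded windows, 20.9% of those 1000 bp away, 26.9% at start sites, 14.4% at ranks 5001 to 10000 and 13.7% in the whole list. The E-box CAGCTG occurred in 12.2%, against 11.0% of thresholded windows and 13.2% in the whole list, and AACAGCTG, a core promoter motif that contains it, in 3.67%, against 4.05% and 2.26%. CACGTG, the E-box bound by Myc and Max, occurred in 2.92%, against 2.63% and 3.10%, CAGGTA, the core of Zelda sites, in 3.98%, against 4.31% and 4.72%, and TGACTCA, the AP-1 site, in 1.77%, against 2.19% and 1.79%. Of the 1330 regions found in all 3 lists 9.55% held TAATTA, against 9.46% of the 930 found in fewer, and 31.7% held GAGAG, against 30.4%. TGATTAAT was in 20 of the 1330, against 7 of the 930, and this difference was not tested.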

How the data were processed

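ChIP-seq, by the descriptions with an antibody against GFP, was done on 3 biological replicates of pb-GFP embryos. The authors deposited narrowPeak lists on dm6 and dm3 with a signal value, a −log10 q and a summit offset per region. Per the deposited notes, a replicate list came from that replicate and 1 control, the combined list on the 3 replicates together and the control, and the thresholded list was made from these on the irreproducible discovery rate. Not given in the sources used here are the statistic behind the deposited signal value, the aligner and the caller. Read depth is unknown, so no interval for read counting is given. The signal is the authors' own value and was used to rank regions within a list, and as deposited in the map of hth and kel.

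Summits within 100 bp were called shared. Classes were assigned in the order promoter (1000 bp to either side of a protein-coding start site), 5′ untranslated, coding exon, 3′ untranslated, intron, intergenic, from Ensembl release 115 (FlyBase 6.54). Sequences came from Release 6. Differences over libraries were tested by exact 2-sided sign-flip permutation, and p-values were not adjusted because this test cannot go below 0.25 with 3 libraries. Scripts were checked on simulated lists and used Python 3.11.15, numpy 2.4.6, pandas 2.3.3, scipy 1.17.1 and matplotlib 3.10.9.

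The regions, the 30 gene lists and the 12 motifs were chosen with earlier results of these data known. Gene lists based on symbols were ribosomal, initiation factor, proteasome, receptor, P450, histone and cuticle genes. Genes were named by rule: Hox genes, exd and hth, the 12 lowest mean replicate ranks, the 3 highest and 3 lowest combined ranks, up to 4 genes of each list, the 6 genes with most regions (with a tie for the last place), and up to 6 regions in no list. The 6 EGF receptor genes with the region only, side-IV, Bsg, wnd and CG8312 were named after their values were seen. Alternatives were other summit distances, overlap, list depths, promoter and motif windows, gene assignments, dm3 lists, and leaving out each replicate. Classes and genes were assigned on dm6 only.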

Additional observations from a re-analysis of the deposited data

How the results depend on the processing

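The count found in the replicate lists depended on how a match was defined. The mean share found in a list, 84.4%, was 68.5% with summits within 50 bp, 93.4% within 200 bp, 95.9% when regions overlapped by 1 bp or more and 68.1% in the 10000 highest ranked of each list. The share in all 3 lists, 58.8%, was 31.3%, 80.7%, 87.6% and 24.9% in the same settings, 65.0% for ranks 2741 to 3870, and 67.1 to 75.8% when a replicate was left out, which asks for 2 lists in place of 3 while the combined ranks keep that library. On dm3 it was 59.0%. The count among the strongest of all libraries, 0, was 5 within 200 bp, 66 with the strongest 5000, and 21 to 29 with a replicate left out. The promoter share was 46.3% with a window of 500 bp, 34.7% with 200 bp and 60.4% with start sites of every biotype. The share at a gene with a thresholded peak was 32.8% with start sites within 5000 bp and 45.4% by gene body. Within 500 and 2000 bp of a thresholded summit lay 4.602% and 19.6%. TAATTA occurred in 4.29% of windows of 50 bp to either side. The promoter difference over libraries, −8.16 points, kept its sign in each alternative. So did the distal difference, 2.82 points, but it was 0.615 with a promoter window of 500 bp (exact p = 1), and 4.56, 2.09 and 1.81 without replicates 1, 2 and 3. The mean share in a list without each replicate, and the coding exon share without each replicate, were chosen after seeing the data. The 2 differences over libraries pair each library's rank band with its own strongest peaks, and their exact sign-flip test cannot go below 0.25. With 1 group, replicate numbers pair no samples across groups. The unknown read depth limits what absence from a list shows.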
